A study of Caenorhabditis elegans with 7 samples.

Results

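The subject here is 4 pairs of chromosomal neighbours in Caenorhabditis elegans. Their transcripts fell together over 12 h in adult worms moved to 30 °C. The pairs are Y73F4A.2 with Y73F4A.3, Y43C5A.2 with Y43C5A.3, C55A6.3 with C55A6.6 and C35C5.8 with C35C5.9, in all 8 of the 7534 genes named on the array. They were picked by name, with the results of these arrays known, because both genes of each pair were lower later in heating. Their fall is therefore a description. Counts of members called by the fits across all features are given below with the share of all features called, and nothing is read from them, since all 7 arrays went into the choice. In the WBcel235 gene order of RefSeq both members of every pair stand directly next to each other, the Y73F4A and Y43C5A pairs on chromosome IV, the C55A6 pair on V and the C35C5 pair on X. All 8 are protein-coding genes. The sources used here give them sequence names only, so no role is stated for them.

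Adult animals of strain CF512 were grown at 25 °C, where this strain is sterile, and heat stress was applied by a move to 30 °C. Total RNA was taken at 0 h (baseline, still at 25 °C) and at 2, 4, 6, 8, 10 and 12 h, and each time point is 1 two-colour array against a common reference RNA called HS1. No time point has a replicate, so no single value has an error of its own. No array is of animals kept at 25 °C after 0 h. Hours at 30 °C therefore cannot be told apart from age or elapsed time. The RNA is from whole animals, so fewer cells of a type and less RNA per cell cannot be told apart. None of the 25 listed marker genes of adults, sperm or embryos was on a named probe, and the stage of the animals could not be checked from these values.

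Neighbouring genes of the worm can share expression in several ways. Some lie in operons, where 1 promoter gives a joint precursor RNA that trans-splicing cuts into single messages. Others are tandem duplicates, which often keep similar control regions and can also be similar enough in sequence to share signal on a spotted probe. Heat stress in the worm is best known for the induction of chaperone genes by the transcription factor HSF-1, together with a lower output of many other genes. Whether any of these pairs is an operon or a duplication was not tested, since no sequence was used here.

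The values below are log2 ratios, read as worm RNA over reference and centred on the median of each array, so they give levels relative to HS1 only. Between 16143 and 16972 of the 19200 probes had a value on an array. Each member had 1 probe, and all 8 were measured on all 7 arrays. Which channel is on top is not given by the labels. The direction was taken from F44E5.4 and F44E5.5, genes for heat-inducible HSP70 chaperones, which stood at -4.98 at 0 h, the lower limit of the file, and at 0.91 and 0.83 at 2 h. If the ratio in fact runs the other way, every fall below is a rise.

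The Y73F4A pair had the most similar shape. Y73F4A.2 had a log2 ratio of 1.30 at 0 h, 0.93 at 2 h, 0.02 at 4 h, -0.20 at 6 h, -0.52 at 8 h, -1.74 at 10 h and -1.82 at 12 h. Y73F4A.3 had 0.59 at 0 h, 0.65 at 2 h, -0.28 at 4 h, -0.45 at 6 h, -0.44 at 8 h, -1.26 at 10 h and -2.04 at 12 h. Both were high at 0 and 2 h and low at 10 and 12 h. Between 4 and 8 h Y73F4A.3 was close to level, while Y73F4A.2 was lower at each time than at the time before. For Y73F4A.2 the difference of 4 h against 0 h was -1.28, that of 8 h against 4 h -0.55 and that of 12 h against 8 h -1.30. For Y73F4A.3 the same differences were -0.87, -0.16 and -1.60. At 12 h the ratio was thus 8.71-fold lower than at 0 h for Y73F4A.2 and 6.20-fold lower for Y73F4A.3, if the logs are of base 2.

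In the Y43C5A pair the genes differed in size. Y43C5A.2 stood at 0.31 at 0 h, -0.03 at 2 h, -0.07 at 4 h, -0.04 at 6 h, -0.29 at 8 h, -0.63 at 10 h and -0.85 at 12 h. It was level from 2 to 6 h and lower at each of the 3 later times. Y43C5A.3 stood at 0.82 at 0 h, 1.01 at 2 h, 0.37 at 4 h, 0.10 at 6 h, -0.91 at 8 h, -1.22 at 10 h and -1.08 at 12 h. Its largest fall between neighbouring times was -1.01 and lay between 6 and 8 h, and from 8 h on it stayed between -1.22 and -0.91. At 12 h the ratio of Y43C5A.3 was 3.73-fold lower than at 0 h and that of Y43C5A.2 2.24-fold lower. Y43C5A.3 was the higher of the 2 genes up to 6 h and the lower from 8 h on.

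The C55A6 pair ended at the same place by different routes. C55A6.3 had log2 ratios of 0.92 at 0 h, 0.14 at 2 h, 0.78 at 4 h, -0.16 at 6 h, -0.90 at 8 h, -0.47 at 10 h and -0.75 at 12 h. C55A6.6 had 0.60 at 0 h, 0.24 at 2 h, -0.25 at 4 h, -0.44 at 6 h, -0.62 at 8 h, -0.95 at 10 h and -0.73 at 12 h. C55A6.6 was lower at each time up to 10 h than at the time before, while C55A6.3 was back near its 0 h value at 4 h and dropped after it. At 4 h the genes were 1.03 log2 units apart, and at 12 h only 0.01. Against 0 h the 12 h ratio was 3.18-fold lower for C55A6.3 and 2.51-fold lower for C55A6.6.

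The C35C5 pair moved together and then parted. C35C5.8 stood at 1.11 at 0 h, 0.30 at 2 h, 0.10 at 4 h, -0.22 at 6 h, -0.67 at 8 h, -0.33 at 10 h and -0.55 at 12 h. C35C5.9 stood at 1.27 at 0 h, 0.68 at 2 h, 0.01 at 4 h, -0.35 at 6 h, -1.33 at 8 h, -2.17 at 10 h and -2.40 at 12 h. Up to 6 h the genes were at most 0.38 log2 units apart. From 8 h C35C5.8 stayed between -0.67 and -0.33 and was higher by 0.12 at 12 h than at 8 h. C35C5.9 was lower by 1.07 at 12 h than at 8 h. At 12 h the ratio of C35C5.9 was 12.7-fold lower than at 0 h and that of C35C5.8 3.16-fold lower.

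**Figure D1:**
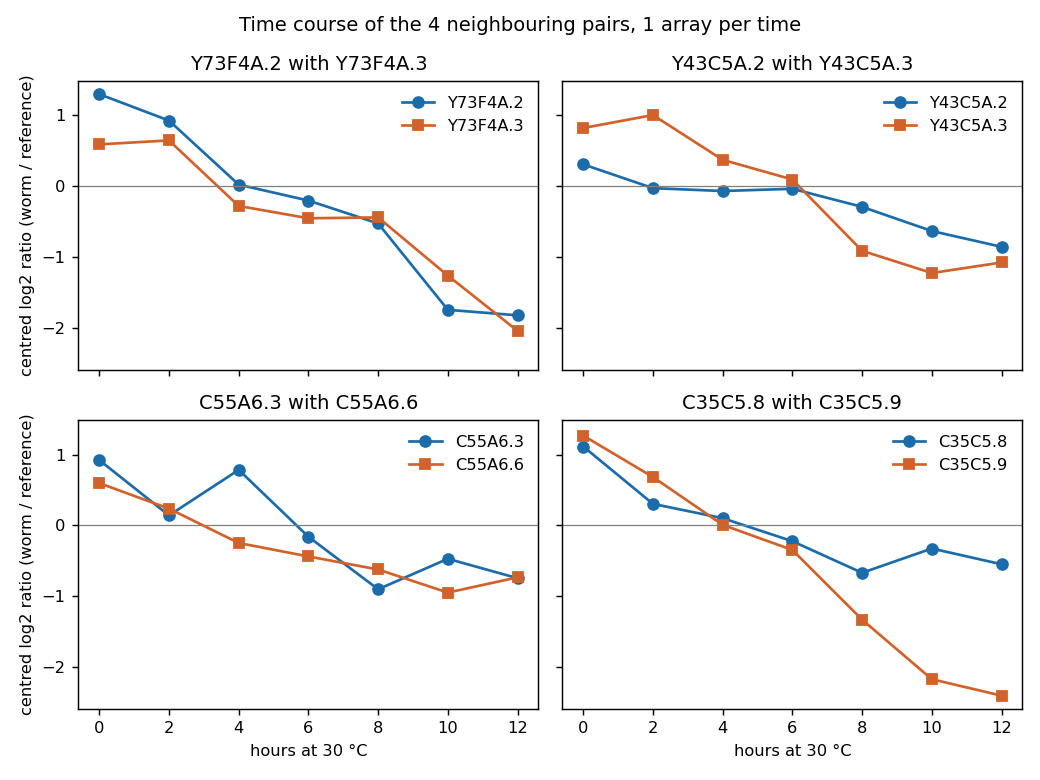
Centred log2 ratio of worm RNA to reference (vertical axis) against hours at 30 °C (horizontal axis) for both genes of each pair, with 1 array per point and so no error bars. The lines of the Y73F4A pair run close together, those of the Y43C5A pair cross between 6 and 8 h, C55A6.3 stands above C55A6.6 at 4 h, and C35C5.9 leaves C35C5.8 after 6 h to reach -2.40 at 12 h.

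Set beside each other by array, the 8 genes changed sides of the array median in the middle of the course. At 0 h all 8 ratios were above 0, with a median of 0.87. At 4 h 5 of the 8 were above 0, and at 6 h 1 was, Y43C5A.3. From 8 h on all 8 were below 0, and their median was -0.65 at 8 h, -1.09 at 10 h and -0.96 at 12 h. In 7 of 8 members every ratio at 8 to 12 h lay below every ratio at 2 to 6 h, where 8.38% of the 13369 features measured on all arrays had this pattern. The members were chosen for such a pattern. The exception was Y73F4A.3, whose ratio at 8 h (-0.44) lay just above that at 6 h (-0.45). In 6 of 8 members all 6 heated arrays lay below the baseline array, where 21.4% of the features did. Y73F4A.3 and Y43C5A.3 did not, since both had their highest ratio at 2 h.

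A straight line over 0 to 12 h, fitted with limma to all features, put the change of C35C5.9 at -3.87 log2 units (SE 0.26, 7 arrays), the 6th lowest of 5315 named genes measured on all arrays. Y73F4A.2 followed at -3.27 (SE 0.30), then Y73F4A.3 at -2.54 (SE 0.33) and Y43C5A.3 at -2.45 (SE 0.34). The other members had smaller changes. They were -1.70 for C55A6.3 (SE 0.40), -1.50 for C35C5.8 (SE 0.33), -1.44 for C55A6.6 (SE 0.27) and -1.06 for Y43C5A.2 (SE 0.24). The median of the 8 was -2.07, against 0.04 over all 13369 features. All 8 were called lower at an adjusted p under 0.05, where 3.63% of the features were. Over 16 alternatives Y73F4A.2, Y73F4A.3, Y43C5A.3 and C35C5.9 kept the call in all 16. C55A6.6 kept it in 13, C35C5.8 in 7, and Y43C5A.2 and C55A6.3 in 5 each. C35C5.8, Y43C5A.2 and C55A6.3 lost the call whichever of the 7 arrays was left out. Single probes, limit values set to missing and the robust prior, all among the 16, left the fitted changes nearly as they were.

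Within the heating period alone, from 2 to 12 h, 4 of 8 members were called lower by limma, where 0.779% of 13478 features were. These were C35C5.9 with a fitted change of -3.28 over 10 h (SE 0.28, 6 arrays), Y73F4A.2 with -2.77 (SE 0.32), Y73F4A.3 with -2.34 (SE 0.34) and Y43C5A.3 with -2.32 (SE 0.34). The values of the other 4 lay between -1.28 (C55A6.3, SE 0.43) and -0.86 (C35C5.8, SE 0.29). When the 12 h array was left out C35C5.9 alone of the 8 stayed called, Y73F4A.3 and Y43C5A.3 also lost the call when the 10 h array was, and Y43C5A.3 when the 4 h array was or with up to 2 missing arrays. Without the 2 h array limma called 0 of the 8, of which 6 had an unadjusted p under 0.05, and 0 features over the whole table, of which 1309 did.

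Against the baseline, the mean of the 6 heated arrays was lower for all 8 genes, from -2.19 for C35C5.9 (SE 1.02) to -0.63 for Y43C5A.2 (SE 0.35). C35C5.8 had -1.34 (SE 0.36) and C55A6.6 -1.06 (SE 0.39), with smaller errors than C35C5.9 or Y73F4A.2 (-1.86, SE 0.88). Limma called 0 of 8 here, where 0.957% of the features were called lower, and 2 of 8 had an unadjusted p under 0.05, as did 17.6% of all features. For a gene that falls steadily the heated arrays differ among themselves, and the spread of C35C5.9 about its heated mean was 1.24 log2 units, against 0.19 about its straight line.

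How the difference between the genes of a pair changed was measured as a line through their difference at each time, over all 7 arrays. For C35C5.8 minus C35C5.9 the fitted change in the difference was 2.37 log2 units over 12 h (SE 0.45), which is 5.28 times its error. The difference itself was -0.15 at 0 h and 1.86 at 12 h. The fitted fall of C35C5.9 was 2.57 times that of C35C5.8 on the log2 scale. For Y43C5A.2 minus Y43C5A.3 the fitted value was 1.40 (SE 0.44), 3.19 times its error. Here the difference did not follow a straight line. It was -0.51 at 0 h, -1.03 at 2 h, 0.62 at 8 h and 0.22 at 12 h, so the genes crossed and the fitted value exceeds the change from 0 to 12 h. The difference of Y73F4A.2 minus Y73F4A.3 changed by -0.72 (SE 0.33), 2.23 times its error, and that of C55A6.3 minus C55A6.6 by -0.25 (SE 0.53), within its error. The fitted value was thus smallest in size in the C55A6 pair and largest in the C35C5 pair. The C55A6 and Y73F4A values overlap within their errors, and without the 10 h array they were -0.44 and -0.48. Without the 12 h array the Y73F4A value was -1.22, and with each print block centred on its own median it was -1.02. In the C55A6 pair it was -0.06 when the 4 h array was left out and -0.51 when the 2 h array was.

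**Figure D2:**
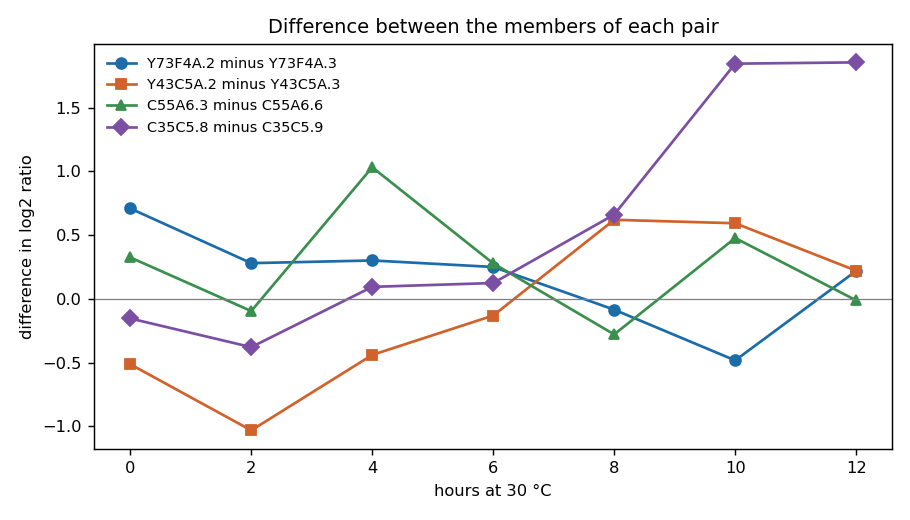
Difference in log2 ratio between the genes of each pair (vertical axis) against hours at 30 °C (horizontal axis), with 1 array per point. The C35C5 difference is within 0.38 log2 units of 0 up to 6 h and reaches 1.86 at 12 h, while the other pairs stay within 1.03.

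Over the 7 arrays Pearson's r between the genes of a pair was 0.97 for Y73F4A, 0.88 for Y43C5A, 0.87 for C35C5 and 0.79 for C55A6. All genes that fall steadily correlate in this way, and the arrays share 1 reference RNA. Across the 24 combinations of members from different pairs r ran between 0.68 and 0.99 with a median of 0.885, against a median of 0.87 within the 4 pairs. For the ratios themselves, the median within pairs was thus not above that between pairs, and the difference was not tested. After each gene's own straight line was taken off, r between the deviations was 0.49 for Y73F4A, -0.05 for C55A6, -0.22 for C35C5 and -0.30 for Y43C5A. Between pairs the deviations gave values from -0.88 to 0.72 with a median of 0.03. The 6 steps from one time to the next went the same way in 5 of 6 for C35C5, 4 of 6 for Y73F4A, and 3 of 6 for Y43C5A and C55A6. Beyond the shared decline, only the Y73F4A genes had deviations with an r above 0, and with 7 arrays none of these coefficients was tested.

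The next question was how often neighbours fell together on these arrays. Among 1599 pairs of named genes that are next to each other and were measured on all arrays, limma called both genes lower over 0 to 12 h in 6. These were the 4 pairs described here, T16G1.7 with T16G1.6, and cest-17, of the carboxylesterase family, with timp-1, named for the tissue inhibitors of metalloproteases. The 4 pairs were chosen for this fall, so the count of 6 is in part fixed by the choice. Among the 1595 other pairs it was 2. Counted once per pair, 3.69% of the genes in these pairs were called lower. Whether neighbours fell together more often than other genes was not tested. At least 1 gene was called lower in 112 of the 1599, and for 106 of these it was 1 gene only. Over the 1595 other pairs the median r was 0.11, with quartiles of -0.25 and 0.45, and the median absolute difference in fitted change was 0.52 log2 units, with quartiles of 0.25 and 0.95. The differences within the Y43C5A and C35C5 pairs were above the upper of these quartiles, that of the Y73F4A pair was between them, and that of the C55A6 pair was near the lower. A difference can be larger where the changes are larger, so these quartiles are not a like measure for pairs that fall. The other pairs with both genes lower had an r of 0.94 (cest-17 with timp-1) and 0.96 (T16G1.7 with T16G1.6). Their absolute differences in fitted change were 0.76 and 1.07 in the same order. The count of 6 was not stable. It was 1 when the 0 h, the 6 h or the 10 h array was left out or when arrays were quantile normalized, and 10 with log time. Of the 4 pairs described here, only Y73F4A kept both genes called whichever array was left out. It was also the only 1 of them to do so after quantile normalization.

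**Figure D3:**
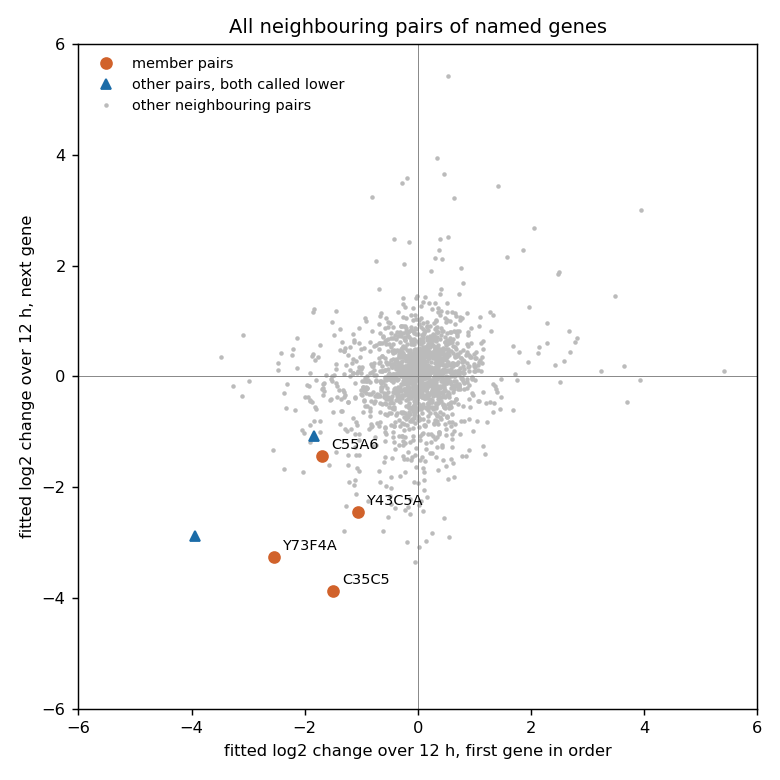
Fitted log2 change over 0 to 12 h of the first gene in the gene order (horizontal axis) against that of the next gene (vertical axis) for the 1599 neighbouring pairs of named genes measured on all arrays. Most points lie near 0 on both axes, and the 4 pairs described here (circles) lie at the lower left with the 2 other pairs in which both genes were called lower (triangles).

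Genes beside the pairs were not among the members, so their calls are given. The pairs were picked with these arrays known, so a flanking gene that fell as clearly might have changed the choice. Of 43 genes that lie up to 5 places from a pair or share its clone name, 15 were on a named probe and 14 were measured on all arrays. Over 0 to 12 h 1 of the 14 was called lower by limma and 0 were called higher, against 3.63% and 1.72% of all features, and 13 did not pass. By limma 4 of the 14 had an unadjusted p under 0.05, as did 21.0% of all features. The median change of the 14 was -0.39 against 0.04 over all features. C55A6.4 was the gene called lower, with a fitted fall of 1.85 log2 units (SE 0.44, limma adjusted p = 0.0449). It lies beyond sdz-8 from C55A6.6 and stood at 0.475 at 0 h, 0.62 at 2 h, -0.85 at 4 h, -0.50 at 6 h, -0.27 at 8 h, -0.83 at 10 h and -1.62 at 12 h. C55A6.4 kept this call in 6 of 16 alternatives, with limma adjusted p between 0.0223 and 0.189. sdz-8 itself was not analysed here, since no named probe carries it.

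Farther along the same stretch, C55A6.7 had a change of -1.26 (SE 0.41, limma adjusted p = 0.119) and the pseudogene C55A6.8, between C55A6.4 and C55A6.7, had 1.16 (SE 0.35, limma adjusted p = 0.0962), neither of which passed. C55A6.8 stood at -0.07 at 0 h and at 1.12 at 12 h, in the opposite direction to the genes around it. On the other side C55A6.1 had -0.18 (SE 0.25). htrl-1, farther out on that side, had -1.65 over 0 to 12 h (SE 0.71, limma adjusted p = 0.223) but was called lower against the baseline, with -2.25 (SE 0.42, limma adjusted p = 0.0373). Its ratio was 1.75 at 0 h and between -1.16 and -0.02 on the heated arrays. It kept that call in 8 of 14 alternatives. Against the baseline, a single array, the median change of the 14 flanking genes was -0.24, against 0.05 over all features.

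Around the other pairs no tested gene passed in any of the 3 comparisons. Y73F4A.1, the next gene after Y73F4A.2, had a change of -0.17 over 0 to 12 h (SE 0.28) and C53D6.7, the gene before Y73F4A.3, had -0.52 (SE 0.39). C53D6.6 had -0.66 (SE 0.34) and the pseudogene C53D6.5 0.21 (SE 0.27). Here the pair members stood at -2.54 and -3.27, below the genes on both sides. Near the Y43C5A pair, Y43C5A.4 had -0.26 (SE 0.43), F01G10.10 0.02 (SE 0.27) and F01G10.9 1.74 (SE 0.94), the last with a single low ratio of -3.33 at 2 h. None of these lies directly next to the Y43C5A pair, whose direct neighbours were not on a named probe. Near the C35C5 pair and all on the same side of it, ccdc-149 had -0.64 (SE 0.55) and hrg-11.3 -1.12 (SE 0.56), while F29G6.1 had a value on 3 arrays only. Over 16 alternatives ccdc-149 ran from -1.03 to -0.26 and hrg-11.3 from -1.69 to -0.25. The genes directly next to this pair, sdc-2, which acts in sex determination and dosage compensation, and gcp-2.2, were not analysed here. Over 2 to 12 h limma called 0 of the 14, of which 4 had an unadjusted p under 0.05, as did 14.6% of all features, and F01G10.9 had the lowest adjusted p, 0.105.

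**Figure D4:**
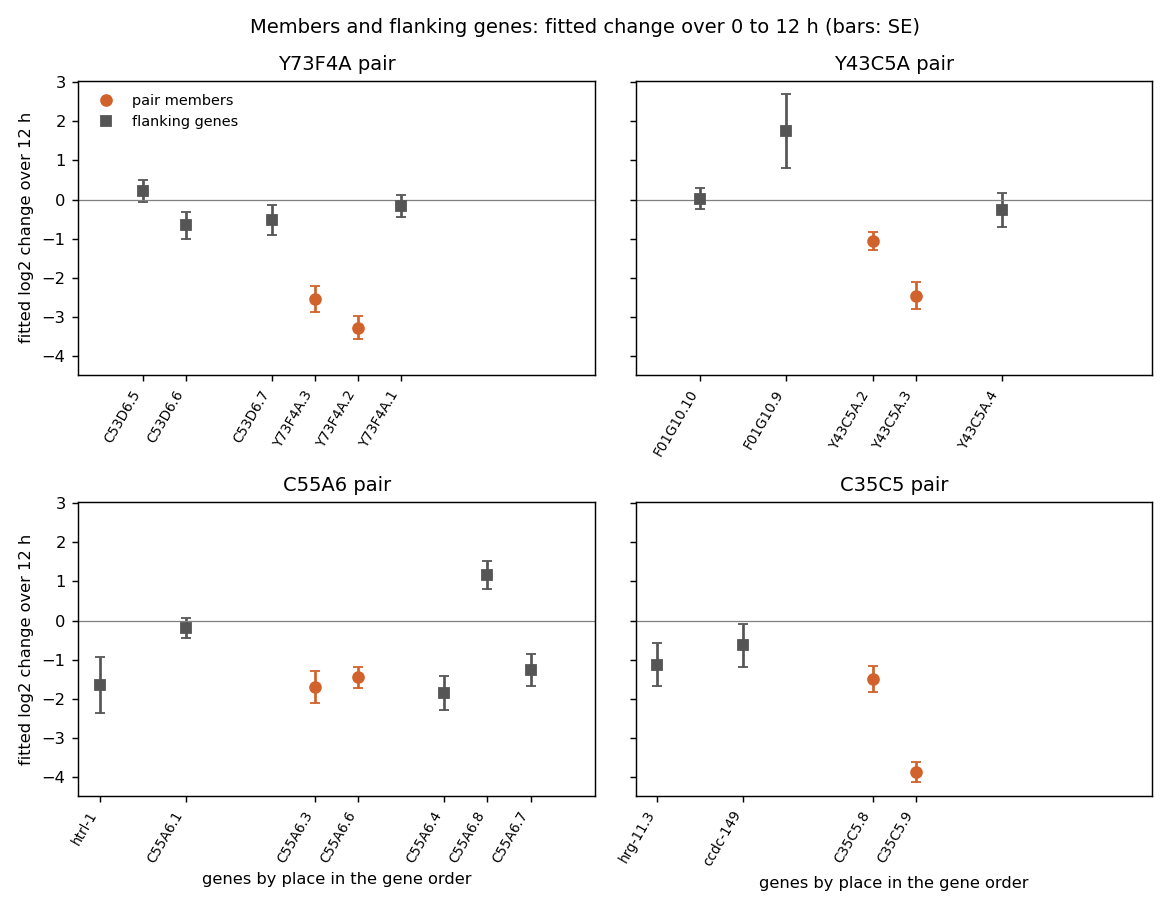
Fitted log2 change over 0 to 12 h with its SE (vertical axis) for the genes of each pair (circles) and the flanking genes measured on all arrays (squares), placed along the horizontal axis by their order on the chromosome. The Y73F4A and Y43C5A pairs lie below the measured genes on either side, which for Y43C5A are not its direct neighbours. In the C55A6 stretch C55A6.4 (-1.85) and C55A6.7 (-1.26) lie near the pair while C55A6.8 (1.16) does not.

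The named genes with the time course most like each pair mean were taken by Pearson's r over 7 arrays, among genes with a fitted fall of at least 50% of the pair's. For the Y73F4A pair they were E01A2.8 (r = 0.99, fitted change -3.48), F23H12.5 (0.99, -3.24), F49E12.10 (0.98, -1.61), F17C11.4 (0.98, -1.85) and F09F7.5 (0.98, -1.70), out of 216 genes compared. The nearest to the Y43C5A pair was K09F6.5 (r = 0.99, fitted change -2.35), then C50F4.1, T19H12.3, F49E12.10 and lep-5, a long non-coding RNA of developmental timing, which had a change of -1.14. F38B6.4 (r = 0.99, fitted change -1.58), T06A4.1, R12E2.7, ZK1307.1 and Y32B12C.1 came closest to the C55A6 pair, and F09F7.5 (r = 0.99), C26E1.2, K09F6.5, R04B5.5 and C17H12.8 to the C35C5 pair. F49E12.10, F09F7.5 and K09F6.5 were each named for 2 of the pairs. No flanking gene was among them. Around the Y73F4A, Y43C5A and C35C5 pairs no flanking gene measured on all arrays fell enough to be compared with its own pair. Their absence there was thus fixed by the limit of 50%.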

How the data were processed

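The deposited table holds log2 ratios, 1 per probe and array, made by the authors from 2 channels, worm RNA and reference RNA per the labels. Log base 2 is inferred from the range of the values. The sources used here do not say how background was corrected, how arrays were normalized or why cells are blank. Deposited values stop at -5 and 5, and no member reaches these limits. Intensities were not analysed here, so the number of arrays limits the precision. The platform annotation names 7900 probes, and 7872 took their current names from the WBcel235 gene table, used for names and gene order only. Gene order covers protein-coding genes and pseudogenes.

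Probes of 1 gene were averaged and arrays centred on their median. Limma 3.58.1 in R 4.3.3 (lmFit and eBayes) was fitted to all features measured on every array of a comparison, with Benjamini-Hochberg adjustment over all features and a threshold of 0.05. The fits were a line over 0 to 12 h, heated against baseline and a line over 2 to 12 h. The baseline, a single array, is taken to have the spread of the others. On simulated data for the line over 0 to 12 h (13369 features), 6 of 100 changes of 1 log2 unit and 54 of 100 of 2 units were recovered, and 3 unchanged features were called. No other features were changed, and the noise was normal and independent. The fit to the real arrays called 485 features lower and 230 higher, so these rates need not hold for it.

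The members and gene lists were chosen with earlier results of these data known. Genes picked out in the text are the 8 members, the flanking genes and the 5 genes most like each pair. T16G1.6, T16G1.7, cest-17, timp-1, F44E5.4 and F44E5.5 fall outside this rule and were chosen after their values were seen. Symbols beginning dhs-, stdh- or sdz- were to form a family list, but 0 were on a named probe. Protein and promoter comparisons could not be made without sequences. Alternatives covered centring and scaling, missing and limit values, single probes, a robust prior, log time (log2 of hours plus 1) and leaving out each array. Centring by print block was added after seeing the data.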

Additional observations from a re-analysis of the deposited data

How the results depend on the processing

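No paired analysis was possible because there is 1 array per time. All fitted changes of the 8 members kept their sign under every alternative run in the 3 comparisons. For the shifts that follow the cause was not tested, though leaving out an array or allowing missing ones changes which features enter. Features called lower over 0 to 12 h numbered 485, and 260 with quantile normalization, and 105 to 426 when an array was left out. Those called higher numbered 230, and 144 after scaling to equal median absolute deviation, 151 if up to 2 arrays may be missing, 394 with log time, and 51 to 188 when an array was left out. Against the baseline 128 became 41 after quantile normalization, 60 after the scaling, and 64 to 273 without an array. Over 2 to 12 h 105 became 57 after quantile normalization, 43 if arrays may be missing, and 0 to 59 without an array. The 6 neighbouring pairs with both genes lower became 1 after quantile normalization, 2 after the scaling, 2 if arrays may be missing and 10 with log time. Without an array there were 1 to 3, and each time only 1 of them was a pair described here. Without centring there were 4, of which 3 were pairs described here. The count of flanking genes called lower, 1 over 0 to 12 h and 1 against the baseline, was 0 in each of those first 3 settings, and 0 to 1 without an array. The change in the Y73F4A difference became -1.02 with print block centring. Left-out arrays gave -1.22 to -0.48 for Y73F4A, 1.11 to 1.85 for Y43C5A, -0.51 to -0.06 for C55A6 and 2.08 to 2.91 for C35C5, and r of 0.96 to 0.98, 0.84 to 0.92, 0.65 to 0.90 and 0.84 to 0.897 in the same pairs.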
